A study of Mus musculus with 4 samples.

Results

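Acetylation of histone H3 at lysine 9 (H3K9ac) was measured by ChIP-seq in mouse embryonic stem (mES) cells and was set against the input DNA, gene by gene and locus by locus. The members are the transcription start sites (TSSs) of the protein-coding genes on chromosomes 1 to 19, 1 TSS per gene, and the 1 kb bins of the same chromosomes that lie far from any start. Of the 21410 TSSs, 20471 had at least 10 input tags within 2 kb and were assessed, and 939 had fewer and were not. Of the 2047618 distal bins, 1355660 had at least 5 input tags and were assessed. The series holds 4 libraries: H3K9ac with antibody ab4441, H3K14ac with the antibodies 13HH3 and 7G8, and input. All come from untreated mES cells that the labels call E14, strain 129P2/OlaHsd, with no allele or agent in any library, and the methods describe wild type cells from blastocysts that were grown on feeder cells and then passaged without them. Each has 1 library and no replicates, so no difference between conditions was tested. The interval of a single TSS, bin or region covers counting error only. The interval of a median over TSSs describes the spread among sites of these libraries, which are not replicates. The H3K9ac library holds 23183487 tags and the input 19313927. A tag is 1 aligned read of 36 bases, and tags without molecular identifiers are not independent molecules of chromatin.

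H3K9ac is placed by histone acetyl transferases such as Gcn5 and Pcaf and removed by histone deacetylases. It neutralises the charge of the lysine, can be bound by bromodomain proteins, and is known for marking the nucleosomes on both sides of the start of genes that are being transcribed, and active enhancers. Promoters rich in CpG dinucleotides are largely free of DNA methylation in ES cells and carry most housekeeping genes, whereas promoters poor in CpG belong mainly to genes of single tissues. ChIP-seq averages over many cells, so a high level in few cells and a low level in all of them cannot be told apart.

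The sequence upstream of the start is shown for 7 genes, because the number of CpGs in it went with the level of H3K9ac at most of them and not at others. Each sequence covers the 250 bases before the TSS (mm9), 5′ to 3′ on the strand of the gene, with each CpG in capitals. Hnrnpa3 (chr2:75497068-75497317, plus strand) had the highest ratio and 41 CpGs, Coro2a (chr4:46615075-46615324, minus strand) had a typical ratio and 12, and Cyp2b9 (chr7:26958180-26958429, plus strand) had the lowest ratio and 2. Cyp2b9 had 0 tags in all 3 ChIP libraries, so its low value is not particular to H3K9ac. Olfr866 (chr9:19832480-19832729, minus strand) stands for the middle of the olfactory receptors with 1 CpG, tied with Olfr1213 at 15 H3K9ac tags against 19 input tags. Hist1h3c (chr13:23837472-23837721, minus strand) had the highest ratio of the histone genes with 6 CpGs upstream of its start, and Pou5f1 (chr17:35642732-35642981, plus strand) and Nanog (chr6:122657257-122657506, plus strand) had raised ratios with 7 and 3. Within 500 bp on either side of its start Hist1h3c had 56 CpGs, so the 250 bases shown leave most of them out.
Hnrnpa3: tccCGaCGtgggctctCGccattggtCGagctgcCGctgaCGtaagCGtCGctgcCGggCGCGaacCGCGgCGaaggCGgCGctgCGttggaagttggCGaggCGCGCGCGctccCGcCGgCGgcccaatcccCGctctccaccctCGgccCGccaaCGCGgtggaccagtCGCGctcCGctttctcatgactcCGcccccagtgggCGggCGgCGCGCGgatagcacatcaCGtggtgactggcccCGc
Hist1h3c: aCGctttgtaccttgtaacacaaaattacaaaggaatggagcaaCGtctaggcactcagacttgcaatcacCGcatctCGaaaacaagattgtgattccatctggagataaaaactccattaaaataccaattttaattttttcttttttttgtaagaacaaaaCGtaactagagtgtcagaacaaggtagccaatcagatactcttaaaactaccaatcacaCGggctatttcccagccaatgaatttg
Coro2a: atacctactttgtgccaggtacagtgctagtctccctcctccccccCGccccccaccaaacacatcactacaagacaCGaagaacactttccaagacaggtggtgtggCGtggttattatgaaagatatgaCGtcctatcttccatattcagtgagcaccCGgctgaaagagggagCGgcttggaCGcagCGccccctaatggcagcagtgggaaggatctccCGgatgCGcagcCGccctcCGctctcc
Cyp2b9: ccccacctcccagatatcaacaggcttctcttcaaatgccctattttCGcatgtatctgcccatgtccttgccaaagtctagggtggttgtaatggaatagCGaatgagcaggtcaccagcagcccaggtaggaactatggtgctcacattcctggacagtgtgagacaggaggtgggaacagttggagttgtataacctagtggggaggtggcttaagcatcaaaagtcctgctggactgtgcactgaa
Olfr866: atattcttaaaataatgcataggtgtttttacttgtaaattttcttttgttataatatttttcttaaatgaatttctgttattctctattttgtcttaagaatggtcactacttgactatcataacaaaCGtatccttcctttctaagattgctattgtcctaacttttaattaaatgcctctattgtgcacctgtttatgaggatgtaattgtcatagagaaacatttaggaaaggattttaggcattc
Pou5f1: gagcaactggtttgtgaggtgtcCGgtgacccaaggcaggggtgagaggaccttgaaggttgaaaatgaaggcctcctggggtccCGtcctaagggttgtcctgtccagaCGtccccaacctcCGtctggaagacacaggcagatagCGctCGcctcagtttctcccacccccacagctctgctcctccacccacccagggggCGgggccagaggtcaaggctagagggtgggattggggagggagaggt
Nanog: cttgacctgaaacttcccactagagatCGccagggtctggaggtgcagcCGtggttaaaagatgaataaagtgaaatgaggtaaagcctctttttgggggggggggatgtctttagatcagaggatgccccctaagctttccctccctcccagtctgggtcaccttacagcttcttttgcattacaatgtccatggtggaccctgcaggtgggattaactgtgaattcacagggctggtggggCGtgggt

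Before the results, the input has to be described, since it stood apart from all 3 ChIP libraries. Over distal bins the ratio of H3K9ac to input ran from 0.659 on chromosome 17, 0.739 on chromosome 15, 0.753 on chromosome 6, 0.777 on chromosome 9 and 0.787 on chromosome 1 to 1.03 on chromosome 8, and the 13HH3 library also had its lowest ratios on chromosomes 17, 15, 6 and 9. Of 23492 windows of 100 kb, 19 were at 0.25 of the input or less in all 3 ChIP libraries, 13 of them on chromosome 17, 3 on chromosome 7 and 3 on chromosome 12. One window on chromosome 7 held 3 H3K9ac tags against 305 input tags, and one on chromosome 17 held 528 against 7755. A difference in copy number or strain between the cells of the input and those of the ChIP libraries cannot be told apart here from other causes. Counts are therefore also given without chromosomes 1, 6, 9, 15 and 17, and with each TSS set against the distal tags within 500 kb of it (regional scaling), which also takes away any broad H3K9ac around the TSS. Both were chosen after the data were seen.

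At the typical TSS, H3K9ac was raised over input. Windows of 2 kb on each side held a median of 127 H3K9ac tags against 37 input tags, and the median ratio was 2.45-fold, which is 1.29 on the log2 scale (order-statistic 95% interval 1.27 to 1.32 over 20471 TSSs). The ratio is that of tags per 10000000 tags of the library, each plus 1. The quartiles lay at 0.13 and 2.15, the lowest TSS at -3.69 and the highest at 4.89. For single TSSs the exact 95% interval was 1.15 wide on the log2 scale in the median, so neighbours in the order of TSSs mostly could not be told apart. At 2-fold or more over input lay 11704 TSSs (57.2% of those assessed), and at 8-fold or more 1236 (6.04%). Another 7996 TSSs (39.1%) lay between 0.5-fold and 2-fold, and 771 (3.77%) at 0.5-fold or less. Without chromosomes 1, 6, 9, 15 and 17, 8907 of 15013 TSSs were at 2-fold or more and 1026 at 8-fold or more. With regional scaling the numbers were 11077 and 872. The 8-fold count also turned on other choices. It was 3417 with scaling to background (the ratio of tags in the 10 kb bins with fewer tags than the median bin), 1991 with 1 kb on each side and 541 with a pseudocount of 5. Of the 1236 TSSs at 8-fold or more, 618 were there under regional scaling too.

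**Figure D1:**
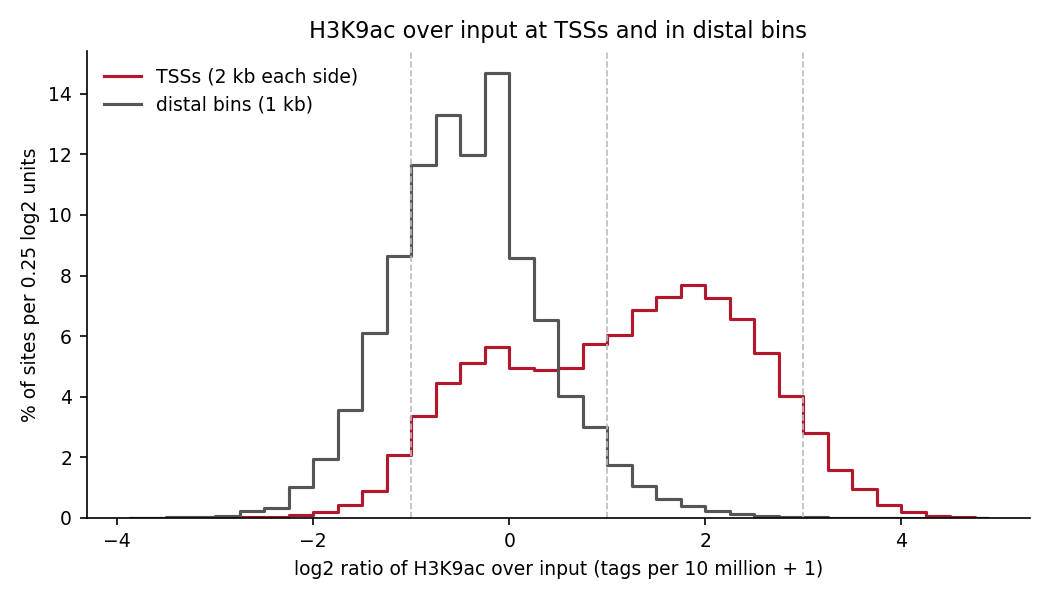
Share of sites (%) in steps of 0.25 log2 units against the log2 ratio of H3K9ac over input, for 20471 TSSs (red) and 1355660 distal bins (grey), 1 library each. Dashed lines mark 0.5-fold, 2-fold and 8-fold. Distal bins form 1 group around a median of -0.43, whereas TSSs spread over a group near input and a larger group around 2 on the log2 scale.

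Of the 100 highest TSSs, 11 were of cytosolic ribosomal proteins and 7 of replication-dependent histones, which make up 0.381% and 0.303% of all assessed TSSs. TSSs of the highest class, at 8-fold or more, had a median of 323 H3K9ac tags against 25 input tags (9.73-fold). The lower bound of the interval was over 4-fold at all 1236, which follows from the 8-fold limit and the minimum of 10 input tags. The first of them was Hnrnpa3, an RNA-binding protein of the hnRNP family, with 638 tags against 16 input tags (TSS on chromosome 2 at 75497318, log2 ratio 4.89, interval 4.34 to 5.87). Eif1a, a factor that scans for the start codon, had 486 tags against 14 (4.67, 4.09 to 5.74). Tmed7, a receptor for secretory cargo, starts 169 bp away on the other strand and shares most of these tags (483 against 15). The histone genes Hist1h3c (578 against 18) and Hist1h2bb (512 against 16) are also neighbours whose windows overlap. Hist1h4h had 396 tags against 14. Mttp, which loads lipid onto lipoproteins, had 371 tags against 11. Its TSS is 60 bp from that of Rg9mtd2, which carries the symbol of a tRNA methyltransferase family (369 against 13), so the tags of this window cannot be given to one gene or the other.

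Also among the 15 highest were Ect2, an exchange factor for small GTPases in cytokinesis (526 tags against 17), Rbm25, a splicing factor (355 against 11), Eif2s2, the beta subunit of the initiation factor eIF2 (406 against 13), Ncl, nucleolin (635 against 22), Cbx5, heterochromatin protein HP1 alpha (560 against 20), and the ribosomal protein Rps9 (413 against 15). The log2 ratios of the 15 ran from 4.35 to 4.89, and the interval of each overlapped those of all others. Input was low at all of them, at 11 to 22 tags, where the first quartile over all TSSs was 28. In the whole class, 799 of the 1236 TSSs (64.6%) had fewer than 28 input tags, and 715 (57.8%) were among the 1236 TSSs with the most H3K9ac tags. By tags alone Eif4a2, an RNA helicase of translation initiation, had 761 against 36 input tags and a log2 ratio of 4.07. It was passed only by Sfi1, whose 1113 tags stood against 1010 input tags. Sfi1 was thus at input level (log2 ratio -0.12, interval -0.25 to 0.00096). Of the 15 highest by ratio, Hnrnpa3 and Ncl were 14th and 15th by tags.

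Shared starts were frequent in this class. At 322 of the 1236 TSSs (26.1%) another protein-coding gene started on the opposite strand within 1 kb, against 7.66% of all TSSs, and 461 (37.3%) had a window that overlapped that of another TSS of the class. For the overlaps no share over all TSSs was computed. Just inside the 8-fold limit were Map3k9 (218 tags against 21, log2 ratio 3.00) and Pno1 (314 against 31), and just outside were Srd5a1 (333 against 33) and Cherp (285 against 28). These 4 had intervals that lie almost on each other, from 2.46 to 3.83 for Map3k9 and from 2.52 to 3.70 for Cherp, so the limit separates no groups.

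**Figure D2:**
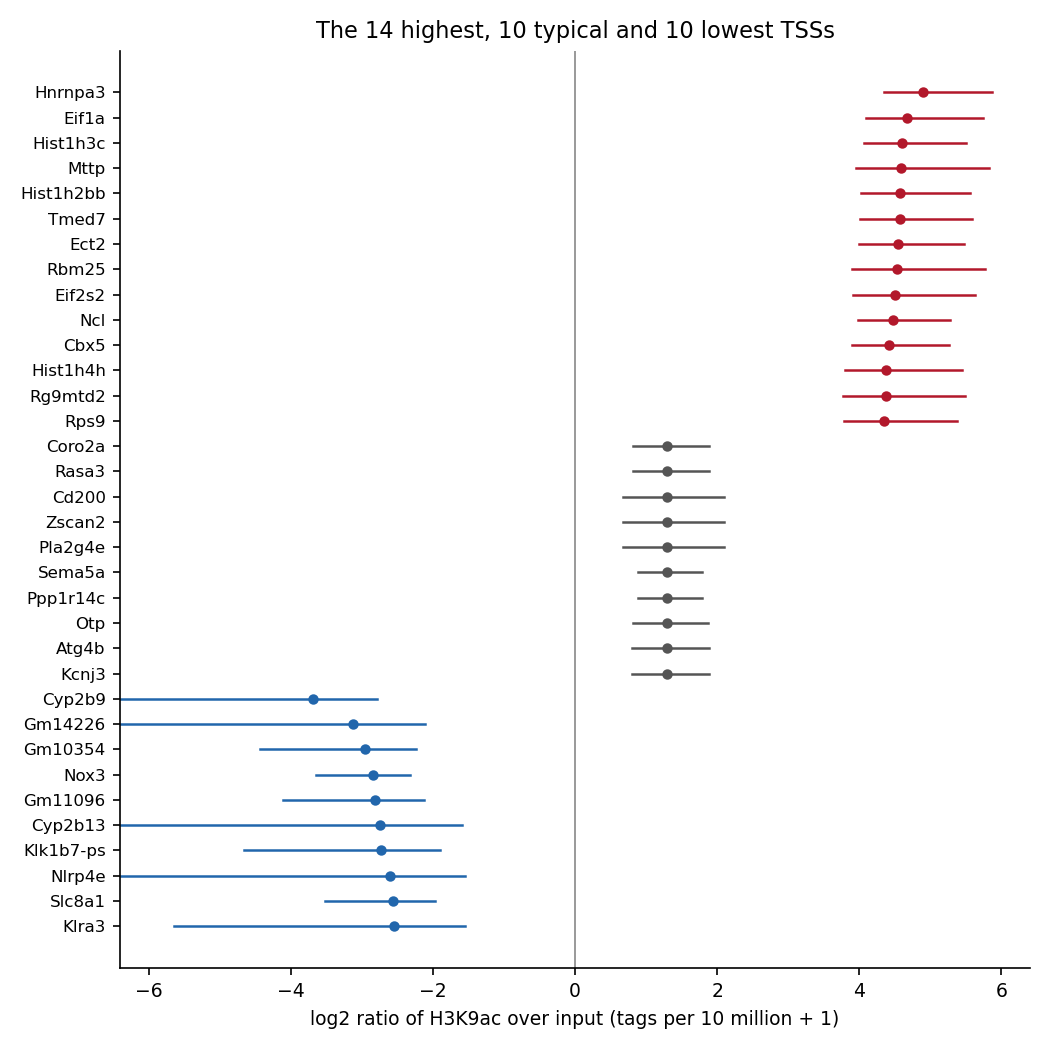
Log2 ratio of H3K9ac over input (points) with its exact 95% interval (bars, counting error only) at the 14 highest, the 10 typical and the 10 lowest TSSs, 1 library each. Bars that reach the left edge go beyond it. The 14 highest lie between 4.35 and 4.89, the typical ones at 1.29, and all of the 10 lowest have upper bounds under 0.

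Typical TSSs, those nearest the median ratio, came from genes of varied function, and all 10 had lower bounds above input. Rasa3, a GTPase activator for Ras, and Coro2a, a coronin that binds actin, each had 124 H3K9ac tags against 41 input tags (2.45-fold, log2 interval 0.81 to 1.88). Cd200, a surface glycoprotein, Zscan2, a zinc finger gene, and Pla2g4e, a phospholipase, each had 74 against 24. Sema5a, an axon guidance factor, and Ppp1r14c, an inhibitor of protein phosphatase 1, had 171 against 57. Otp, a homeobox gene of the hypothalamus, had 127 against 42. Kcnj3, a potassium channel, and Atg4b, an autophagy protease, had 121 against 40. With regional scaling the spread of these 10 widened to 0.39 at Pla2g4e and 2.52 at Sema5a. Their genes span CpG-rich and CpG-poor promoters, with 4 of high, 5 of intermediate and 1 of low CpG content.

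In the raised class (10468 TSSs, 2-fold to 8-fold), the median was 174 tags against 37 (3.79-fold), and the interval lay above the input at all of them. Near the 2-fold limit the counts still set a TSS above the input. Wfdc10 and Gm13157, just inside, had 120 tags against 49 each (log2 ratio 1.00, interval 0.54 to 1.54). Nags, the synthase of the activator of the urea cycle, had 175 against 72 just outside, and A430110N23Rik had 151 against 62.

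TSSs near input carried a median of 48 H3K9ac tags against 40 (1.04-fold). Their interval held the input level at 5220 of the 7996, lay above it at 2024 and below it at 752. At 5138 of them the upper bound was under 2-fold, so a 2-fold excess was outside the counting error, and at the other 2858 the depth does not allow that to be said.

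At the lowest TSSs the other ChIP libraries were low in most cases. Cyp2b9, a cytochrome P450 of the liver, had 0 tags in each of the 3 ChIP libraries and 23 in the input, so that its H3K9ac was at least 9.20-fold lower than input when the H3K9ac library is set to a floor of 3 tags. This floor leaves out the counting error of the input, and the exact interval reaches a ratio of 0.145. Its relative Cyp2b13 had 0 in each against 11 (at least 4.40-fold lower by the floor, interval up to 0.332), and it lies in the 100 kb of chromosome 7 that held 3 H3K9ac tags against 305 input tags. Gm14226 had 0 H3K9ac tags against 15 (at least 6.002-fold lower by the floor, interval up to 0.232), and 1 tag with 13HH3 and 0 with 7G8. Nox3, an NADPH oxidase of the inner ear, had 24 H3K9ac tags against 155 in the input, with 19 and 35 tags in the H3K14ac libraries. It lies in the stretch of chromosome 17 with very high input. Slc8a1, a sodium and calcium exchanger, had 18 against 98 (36 with 13HH3, 24 with 7G8), and Gm11096 had 11 against 76 (25 with each), both on chromosome 17. The other 4 were Gm10354 (9 against 71, with 24 and 19), Klk1b7-ps (6 against 44, but 30 tags with 13HH3 and 22 with 7G8), Nlrp4e, an oocyte gene of the NLR family (2 against 20, ratio 0.164, 95% interval 0.00944 to 0.343, with 10 tags in each H3K14ac library), and Klra3, a receptor of natural killer cells (3 against 24, 0.171, 0.0201 to 0.343, with 0 and 4). Regional scaling left 7 of these 10 at 0.5-fold or less. It brought Nox3 to 0.08, Slc8a1 to -0.45 and Gm11096 to -0.82 on the log2 scale. The mapping of reads to near-identical copies was not given in the sources used here, which touches the genes of this group that belong to large families.

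Of the 771 TSSs at 0.5-fold or less, 739 had an upper bound below the input. They had 17 tags against 37 in the median (0.430-fold). Olfactory receptors made up 181 of them (23.5%, beside 5.21% of all assessed TSSs), 111 were on chromosome 6 (14.4%, beside 5.60%), and 90 lay where the distal tags within 500 kb were also at 0.5-fold or less. For the 771 these distal tags had a median log2 ratio of -0.48, beside 0.07 over all assessed TSSs. Both H3K14ac libraries were at 0.5-fold or less at 65. Singly, 13HH3 was there at 400 and 7G8 at 239 of all 20471 TSSs. No share over all TSSs was computed for the 90 and the 65. Under regional scaling 263 of the 771 remained at 0.5-fold or less. The class held 177 TSSs with scaling to background and 290 with a pseudocount of 5. The part of regional differences in the other TSSs of this class was not tested.

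CpG content went with the classes. It was read from the genome sequence and was not used to choose the TSSs. High-CpG promoters (HCP) were those with a 500 bp window within 500 bp of the TSS that had an observed over expected CpG ratio over 0.75 and a GC content over 0.55, low-CpG promoters (LCP) those with no window over 0.48, and intermediate ones (ICP) the rest. The 9425 HCPs had a median log2 ratio of 2.07 (4.21-fold), the 3905 ICPs 1.22 (2.33-fold) and the 7141 LCPs -0.11 (0.924-fold). At 2-fold or more were 89.7% of HCPs, 58.7% of ICPs and 13.5% of LCPs, beside 57.2% of all TSSs. At 8-fold or more were 11.7%, 3.10% and 0.168%, beside 6.04%. HCPs made up 89.2% of the highest class and 70.2% of the raised class, and LCPs made up 68.7% of the TSSs near input and 89.4% of those at 0.5-fold or less. The difference of the HCP and LCP medians was 2.19 on the log2 scale, and 1.93 with regional scaling. Input tags did not differ in this way, with a median of 36 at HCPs and 36 at LCPs.

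The ratio rose with the number of CpGs and then levelled off. In deciles of the CpGs within 500 bp of the TSS, the median log2 ratio went from -0.41 at 4 CpGs over 0.60 at 22, 1.38 at 37 and 1.84 at 50 to 1.98 at 61. From there on it changed little and reached 2.12 at 109 CpGs. The share of TSSs at 2-fold or more went from 3.03% in the lowest decile to 91.0% in the highest. A partner gene on the opposite strand went with higher levels at equal class: HCPs with a divergent neighbour had a median of 2.54 (n = 1273) and those without one 1.98 (n = 8152), and among ICPs the medians were 1.98 (n = 245) and 1.16 (n = 3660). The window of such a TSS takes in both starts, and both genes of a pair enter these counts. How much of the difference this makes was not tested.

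**Figure D3:**
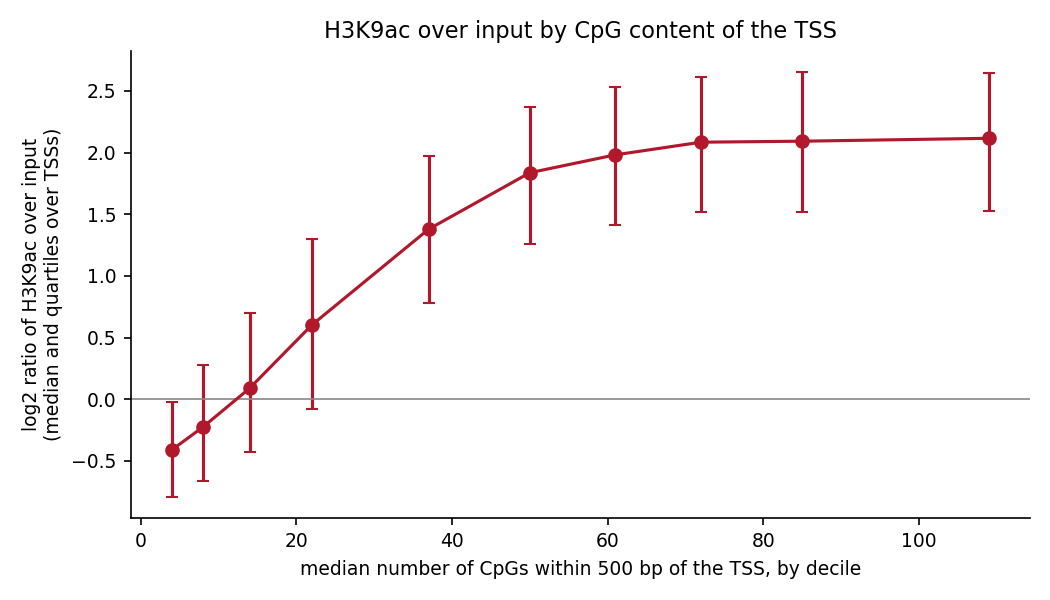
Median log2 ratio of H3K9ac over input (points) with the quartiles over TSSs (bars), by decile of the number of CpGs within 500 bp of the TSS, about 2047 TSSs in each decile. The median rises from -0.41 to 1.84 over the lower 6 deciles and stays between 1.98 and 2.12 in the upper 4.

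Some promoters left this pattern on either side. Only 12 LCPs were at 8-fold or more. They were Rbpj, the DNA-binding partner of Notch (518 tags against 35, log2 ratio 3.55), AU018091 (280 against 21), Fxr1, an RNA-binding protein (237 against 18), Uba2, which activates SUMO (348 against 28), Tmem79 (599 against 52), Zscan10, a zinc finger factor of ES cells (467 against 41), Lpxn (158 against 13), Zfp13 (420 against 39), Phc1, a Polycomb protein (435 against 42), Ctnnd1, the p120 catenin (243 against 23), Gapdh, the glycolytic enzyme (525 against 52), and Jund, a member of AP-1 (277 against 27). The windows of Zscan10 and Zfp13, 1369 bp apart, overlap. The CpG class is read within 500 bp of 1 start, whereas tags are counted over 2 kb on each side. A CpG-rich start elsewhere in these windows was not looked for. In the other direction, 5 HCPs were at 0.5-fold or less. These were Gm8994 (38 tags against 109), 5730507C01Rik (9 against 27), Cacng2, which regulates AMPA receptors (18 against 38), and Gm8909 and RP23-108F2.6, which share 1 TSS (15 against 32). With regional scaling Gm8994 was at -0.87 and 5730507C01Rik at -0.11 on the log2 scale, so that neither stayed at 0.5-fold or less, and 5730507C01Rik lies in 100 kb of chromosome 12 with 40 H3K9ac tags against 394 input tags. Both sets of genes were picked out after their values were seen.

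Short motifs were searched on both strands in the 250 bases before each TSS. A match says only that the letters are present. Apart from the CCAAT box and the TATA box, every motif searched contains a CpG. Promoters with and without a match were not matched for the number of CpGs within a class, or for a divergent neighbour. Within HCPs the YY1 motif AAGATGGCG occurred in 1.21% of promoters (114). Their median log2 ratio was 2.46 against 2.06 without it, and 28.9% were at 8-fold or more against 11.5%. For the ETS motif CCGGAAG (14.6% of HCPs) the medians were 2.33 with and 2.02 without, for the cyclic AMP response element TGACGTCA (3.15%) 2.34 and 2.06, and for the NRF1 core GCGCATGCG (3.40%) 2.35 and 2.06. The E-box CACGTG (9.10%) and the CCAAT box CCAAT (34.6%) had medians of 2.13 and 2.14 with a match and 2.06 and 2.03 without. The GC box GGGCGG, which contains a CpG, had medians of 1.84 with and 0.53 without over all promoters (41.9% held it), and within classes 2.05 and 2.12 at HCPs (67.6%), 1.40 and 1.05 at ICPs and 0.52 and -0.16 at LCPs. The TATA box TATAAA had medians of 0.06 and 1.41 over all promoters (11.9%), and within classes 2.03 and 2.08 at HCPs (5.06%), 0.87 and 1.26 at ICPs and -0.33 and -0.04 at LCPs. The share at 8-fold or more went the other way at HCPs, with 15.1% with the TATA box and 11.5% without. Of the sequences shown above, that of Hnrnpa3 held a GC box, a CCAAT box and an E-box, that of Pou5f1 a GC box and a CCAAT box, and those of Cyp2b9, Olfr866 and Nanog none of the motifs searched.

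Gene lists were next set against all TSSs, of which 57.2% were at 2-fold or more, 6.04% at 8-fold or more, with a median log2 ratio of 1.29. The cytosolic ribosomal proteins stood at the top. All 78 were at 2-fold or more and 55 at 8-fold or more, with a median of 3.25. They ran from Rpl13a (142 tags against 51, 1.18) over Rpl23 (401 against 33, 3.27) to Rps9 (413 against 15, 4.35). Replication-dependent histones, whose genes lie in clusters, followed with a median of 3.19. Of 67, 62 were assessed, 60 were at 2-fold or more and 41 at 8-fold or more. Hist1h2ac was in the middle (304 against 26), and the lowest was Hist1h2aa (61 against 34, 0.55, interval -0.05 to 1.23), which like the next lowest, Hist1h2ba (61 against 33), is a variant of the male germ line. With regional scaling the median of the histones was 2.40, and the distal tags within 500 kb of their TSSs had a median log2 ratio of 0.71 over input.

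Subunits of other basic machines were high as well. Proteasome subunits had a median of 2.45, with 38 of 40 at 2-fold or more. Psma3 was the highest (255 against 13, 3.84), Psmb3 lay in the middle (299 against 44), and Psmb11, the subunit of the thymus, was at input (123 against 98, 0.06, interval -0.33 to 0.46). All 12 RNA polymerase II subunits were at 2-fold or more, with a median of 2.53, from Polr2f (166 against 38, 1.81) over Polr2j (236 against 32, 2.55) to Polr2c (165 against 13, 3.22). The 30 housekeeping genes were all at 2-fold or more and 10 at 8-fold or more, with a median of 2.63. Among them Tuba1b, an alpha tubulin, was the highest (450 against 32), Ywhaz, a 14-3-3 protein, lay in the middle (273 against 35), and Rab7, a GTPase of late endosomes, was the lowest (137 against 37, 1.58). Of the Zfp genes, which encode zinc finger proteins, 279 of 348 were at 2-fold or more and the median was 1.95. They ran from Zfp474 (22 against 36, -0.90) over Zfp791 (123 against 25, 1.95) to Zfp42.

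Pluripotency genes, which check the labelled cell type, were raised. Of the 27 found on chromosomes 1 to 19, 26 were at 2-fold or more and 3 at 8-fold or more, and the median was 2.12 (4.34-fold). The highest was Zfp42, the ES cell marker Rex1, with 471 tags against 23 (3.98, interval 3.49 to 4.76). Tdgf1, the Nodal co-receptor Cripto, had 561 against 31 (3.83). Sox2, one of the core factors, had 413 against 31 (3.39). The core factors Pou5f1 (412 against 61, 2.46) and Nanog (307 against 66, 1.92) were lower by ratio, with more input tags. The intervals of Sox2 (2.94 to 4.05) and Pou5f1 (2.10 to 2.90) did not overlap. Their H3K9ac tags were nearly equal (413 and 412), and the ratios differed through the input tags (31 and 61). Pou5f1 lies on chromosome 17 and Nanog on chromosome 6, where the distal ratios to input were low (0.659 and 0.753). Intervals of counting error do not cover this, and its part in the lower ratios was not tested.

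Other factors of the network spread around these. The Kruppel-like factors had 302 tags against 37 at Klf2 (2.70), 289 against 41 at Klf4 (2.50) and 184 against 36 at Klf5 (2.03). Sall4 had 285 against 36, Tbx3 304 against 57, Prdm14 185 against 45, Foxd3 157 against 47 and Utf1, the middle member, 242 against 45. Among the developmental pluripotency associated genes, Dppa2 had 196 against 19 (2.98), Dppa5a 257 against 26 (2.95), Dppa4 167 against 22 (2.56) and Dppa3 84 against 34 (1.00). The signalling genes had 376 against 42 at Nodal, 345 against 38 at Gdf3, 323 against 50 at Fgf4, 165 against 45 at Lefty2 and 180 against 67 at Lefty1. The RNA-binding protein gene Lin28a had 196 against 51, and Tcl1, a co-activator of Akt, 130 against 53 (1.00). The DNA methyltransferase gene Dnmt3b had 186 against 57 (1.41) and its partner Dnmt3l 123 against 46 (1.12). The lowest was Esrrb, an orphan nuclear receptor, with 108 against 53 (0.74, interval 0.28 to 1.27). Its value turned on the start used, since it was 0.01 at the most upstream start and 2.48 at the start with the most H3K9ac tags. Tfcp2l1 was not matched under that symbol and is not counted. The annotation holds it as Tcfcp2l1, with 166 tags against 54 (1.33). With regional scaling 21 of the 27 were at 2-fold or more, the median was 1.87 and Esrrb, the lowest, was at -0.15.

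Pluripotency genes had raised medians in every CpG class, with 2.56 for their 9 ICPs. The 7 LCPs among them were all at 2-fold or more, with a median of 1.92, beside -0.11 and 13.5% for all 7141 LCPs. Those were Dppa2, Gdf3, Pou5f1, Nanog, Lefty2, Lefty1 and Dnmt3l. The 11 HCPs of the list had a median of 2.12, beside 2.07 for all HCPs. Among the housekeeping genes the 23 HCPs had a median of 2.86, and among the ribosomal proteins the 70 HCPs had 3.28.

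Developmental regulators, the transcription factors and signals that ES cells are known to hold mostly silent or poised, had HCPs that lay lower than HCPs in general. Of 49, 27 (beside 57.2% of all TSSs) were at 2-fold or more and none at 8-fold or more, with a median of 1.06. Their 30 HCPs had a median of 1.18 beside 2.07 for all HCPs, their 14 ICPs 1.03 beside 1.22, and their 5 LCPs 0.83 beside -0.11. The highest was Otx2, which ES cells are known to express on leaving the naive state, with 229 tags against 24 (2.89). Eomes had 243 against 47. Sox9 lay in the middle (110 against 43, 1.06), and the muscle factor Myf5 was the lowest (50 against 42, -0.01, interval -0.63 to 0.62). The 40 Hox records, 2 of which carry the symbol Hoxa3, had 27 at 2-fold or more, none at 8-fold or more and a median of 1.22, with Hoxc4 the lowest (55 against 45, 0.02) and 1 of the Hoxa3 records in the middle (115 against 40, 1.22). The 23 Hox HCPs had a median of 1.34. With regional scaling the median of the Hox genes was 0.90 and that of the developmental regulators 1.22.

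Markers of other cell types, which the culture or the feeders could hold, were mostly near input. Many of them are LCPs, and these lay near the median of all LCPs (-0.11), with -0.01 for the 8 LCPs of the fibroblast list, -0.10 for 13 of the hepatocyte list, 0.05 for 16 of the blood cell list and -0.33 for 14 of the muscle list. Of 14 fibroblast genes 1 was at 2-fold or more (median 0.30). This was the collagen gene Col5a1 (163 against 64, 1.06), while Pdgfrb had 110 against 67 and Lum, the lowest, 17 against 24. Hepatocyte genes had 1 of 16 (median -0.05), which was Apoh, with Fgb in the middle at 0.00 and Fga the lowest at -0.79. Muscle genes had 2 of 19 (median -0.29), from Tnni3 (121 against 30, 1.69) over Myh1 to Actc1 (33 against 57, -1.002). With 1 kb on each side the muscle median was 0.22. Without chromosomes 1, 6, 9, 15 and 17 it was 0.38, and that of the fibroblast genes was -0.17. Blood cell genes had 2 of 17 (median 0.08), with Ms4a1 in the middle and Hba-a1 the lowest (17 against 26, -0.80). Neuron genes had 6 of 14 (median 0.62), with Nefl at the top (159 against 28, 2.17), Rbfox3 in the middle (132 against 70) and Grin1 at the bottom (73 against 68, -0.16).

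Markers of the other early lineages lay between. In the primitive endoderm list 5 of 11 records were at 2-fold or more (median 0.99), with Gata6 the highest (153 against 41, 1.59), Sox17 in the middle (112 against 46) and 1 of the 2 records of Dab2 the lowest (16 against 31, -1.11). Trophoblast had 2 of 9 (median 0.82), with Eomes the highest, Gcm1 in the middle (80 against 37) and Prl2c2 the lowest (5 against 10). Primed epiblast had 3 of 7 (median 0.90), with Otx2 the highest, Pou3f1 in the middle (168 against 74) and Cer1 the lowest (37 against 29). Several of these genes are also in the list of developmental regulators.

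Large families of genes used in single tissues had medians at or below input, which depended on the scaling. With scaling to background the medians were 0.14 for vomeronasal receptors, -0.0023 for keratins and 0.53 for beta-defensins. Olfactory receptors, which work in the nose, had 8 of 1066 at 2-fold or more, 181 at 0.5-fold or less and a median of -0.54, in regions whose distal tags had a median log2 ratio of -0.40. With regional scaling the median was -0.19, and with scaling to background it was -0.03. The highest was Olfr94 (177 tags against 38, 1.90), Olfr1213 lay in the middle (15 against 19) and Olfr625-ps1 was the lowest (3 against 19, interval -5.33 to -1.16). Vomeronasal receptors had 2 of 222 at 2-fold or more (median -0.34), from Vmn1r170 (1 against 14, interval -9.47 to -1.35) over Vmn2r27 (28 against 30) to Vmn1r1 (69 against 26, 1.09). The share assessed was lower here than in any other list, at 222 of 321. Keratins and their associated proteins had 2 of 95 (median -0.50), with Krt8, a keratin of early epithelia, the highest (176 against 52, 1.46), Krtap16-2 in the middle (18 against 22) and Krt6b the lowest (11 against 49, -2.20). Beta-defensins had 1 of 41 (median 0.00), with Defb30 the highest (70 against 26, 1.11), Defb28 in the middle (53 against 44) and Defb35 the lowest (10 against 25, -1.39).

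**Figure D4:**
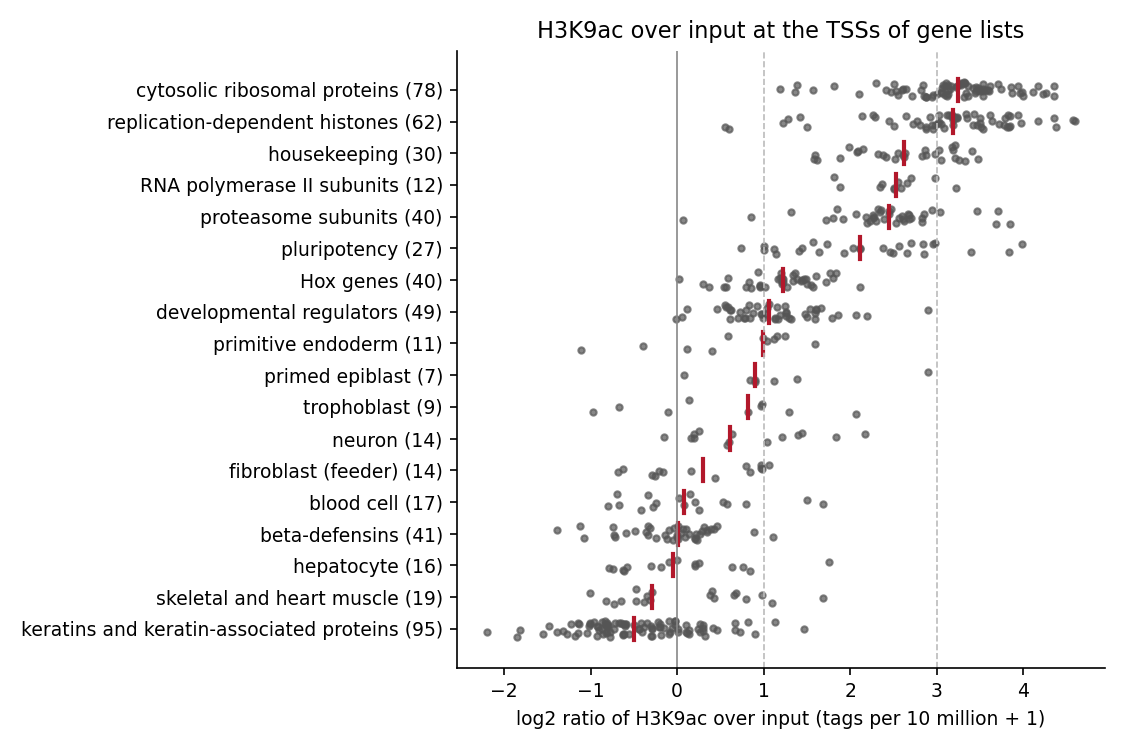
Log2 ratio of H3K9ac over input at each assessed TSS of 18 gene lists (points, 1 per TSS, number assessed in brackets) and the median of each list (red lines), 1 library each. Dashed lines mark 2-fold and 8-fold. Ribosomal proteins and histones lie around 3, pluripotency genes around 2, Hox genes and developmental regulators around 1, and markers of other tissues around 0.

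Around the TSS, H3K9ac formed a pair of maxima with a dip at the start. Mean tags per 100 bp were set against the mean input tags of the same bin. The classes were made from the tags within 2 kb, so heights there restate that rule. In the highest class the maxima were 15.99-fold at 450 bp upstream and 14.02-fold at 850 bp downstream, with 9.90-fold at 50 bp upstream. The profile was 2500 bp wide at the level midway between its maximum and the mean of its outer ends. In the raised class the maxima were 6.05-fold and 5.92-fold, both at 250 bp, with a width of 1900 bp. At 2 to 5 kb from the start, which the rule of the classes did not use, H3K9ac was 3.13-fold upstream and 3.70-fold downstream in the highest class, 1.74-fold and 1.87-fold in the raised class, 1.01-fold and 0.983-fold near input, and 0.577-fold and 0.567-fold in the class at 0.5-fold or less. TSSs near input still had a small maximum of 1.69-fold at 150 bp downstream.

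The shape differed between lists. At ribosomal proteins the downstream maximum was 21.0-fold at 850 bp and the upstream one 14.7-fold at 150 bp, and the 2 kb downstream of the start held 12.1-fold against 6.49-fold in the 2 kb upstream. Housekeeping genes had 8.08-fold downstream and 5.18-fold upstream. Pluripotency genes had lower profiles, with maxima of 7.62-fold and 9.04-fold. Their width at the midway level was 5900 bp, but it turned on 1 bin at 3050 bp upstream. That bin stood at 7.42-fold, with 2.53-fold and 4.33-fold in its neighbours, so a wider shape was not shown. At 2 to 5 kb from the start these genes held 3.47-fold and 4.06-fold. Histone genes stood at 6.50-fold and 5.50-fold there, in clusters where the window of one gene reaches the next. Hox genes had a flat profile, with maxima within 2 kb of the start of 3.05-fold and 3.39-fold, with 1.94-fold and 1.70-fold at 2 to 5 kb. At olfactory receptors no bin exceeded 0.880-fold. The profiles of lists with few TSSs are uneven, since single bins hold few tags.

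**Figure D5:**
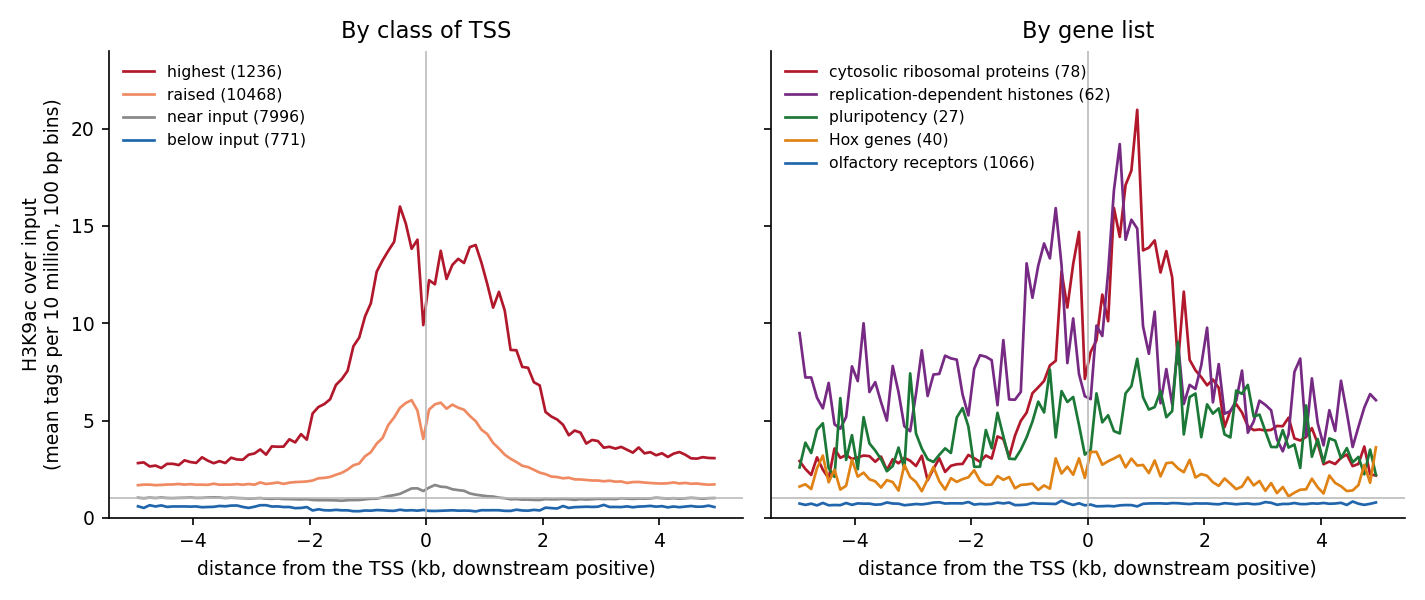
H3K9ac over input (mean tags per 10000000 in 100 bp bins, linear axis) against the distance from the TSS in kb, for the 4 classes of TSSs (left) and for 5 gene lists (right), with the number of TSSs in brackets and 1 library each. The highest class has maxima of 15.99-fold and 14.02-fold on both sides of a dip, ribosomal proteins reach 21.0-fold downstream of the start, and olfactory receptors stay under 1. The classes were made from the tags within 2 kb, so their heights there restate that rule.

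Away from starts, few bins had H3K9ac far above input. Distal bins are those with no start of any transcript within 5 kb. They held 67.7% of the H3K9ac tags and 79.1% of the input tags of chromosomes 1 to 19, and the sum over them was 0.865-fold of the input. The median bin had 7 H3K9ac tags and 9 input tags (log2 ratio -0.43), and the interval held the input level at 84.7% of bins. The minimum of 5 input tags favours bins with chance excess of input, and without it the median was -0.19. That median also takes in bins with few or no tags, which the pseudocount draws towards the input level. Of the 2047618 distal bins, 1835541 had any input tags. With scaling to background the median was -0.02 and the sum 1.27-fold, so whether distal bins lie below input depends on the scaling. Called were bins at 4-fold or more whose lower bound was over 2-fold. These were 6309 (0.465%), with 56 tags against 7 in the median. The mirrored limit in the lower direction took 12312 bins (0.908%), 3006 of them on chromosome 17 and 1408 on chromosome 6. Without chromosomes 1, 6, 9, 15 and 17 the called bins were 4958 of 951873, and with regional scaling 4736. They were 20911 with scaling to background, where the mirrored limit took 2748, 10897 with no minimum of input tags, 1070 with a pseudocount of 5 and 447 with an 8-fold limit.

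Called bins gathered near genes and where CpGs were many. Their share fell with the distance from the nearest protein-coding TSS, from 1.40% at 5 to 10 kb over 0.695% at 20 to 50 kb to 0.0274% beyond 250 kb. By the place of the middle of the bin, the share was 0.527% in introns, 0.813% in exons and 0.410% between genes. Among bins with under 5 CpGs 0.0684% were called, among those with 10 to 20 0.737%, and among the 1667 bins with at least 40 CpGs 22.8% (380). Called bins that touch were joined into 5020 regions. Of these 4155 were single bins, 248 had 3 bins or more and the longest had 12. They lay a median of 21.7 kb from the nearest protein-coding TSS, and that TSS was at 2-fold or more for 80.3% of regions, beside 53.8% of all assessed distal bins.

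The distal regions with the most H3K9ac over scaled input lay by genes known in ES cells as well as by others. An intron of Etl4 held the first, 9 kb at chr2:20586001-20595000 with 1182 tags against 76 (12.7-fold), 154 kb from the TSS of that gene, which itself was near input (0.85). The longest region, 12 kb at chr2:154244001-154256000 near Cbfa2t2, had 1129 against 126 (7.37-fold). The third, 8 kb in the lincRNA Gm11019 on chromosome 13 with Enc1 as the nearest protein-coding gene at 242 kb, had 1049 against 63 (13.5-fold). An intron and exon of Pigl on chromosome 11 had 875 against 72 over 7 kb. A region of 6 kb at chr7:3201001-3207000, 31.8 kb from the CpG-poor start of AU018091, had 825 against 49 (13.5-fold). The region at chr4:55488001-55495000, 7 kb long and 50.3 kb from the TSS of Klf4, had 809 against 61 (10.7-fold). Others of the 10 were near Smarcad1 (703 against 44 over 6 kb) and Rnf4 (647 against 46 over 5 kb), and in Brd1 (659 against 62 over 4 kb).

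Genes with high TSSs had more called distal bins around them. Within 50 kb, 46.9% of the highest TSSs had at least 1, against 31.4% of the raised ones, 14.3% near input and 3.11% of those at 0.5-fold or less, and 24.6% of all. Genes close to each other share such bins. In the pluripotency list 17 of 27 (63.0%) had 1 or more, with 9 at Klf2, 6 each at Zfp42 and Klf5, 4 each at Sall4, Dnmt3b, Pou5f1 and Prdm14, and 3 each at Esrrb, Sox2, Fgf4, Tdgf1 and Lin28a. Nanog, Nodal, Gdf3, Tbx3, Dppa5a, Dppa3, Tcl1, Dnmt3l, Lefty1 and Lefty2 had none. At Nanog this turned on the 50 kb limit. Just beyond it lay a called region of 7 bins in an intron of Slc2a3, at chr6:122710001-122717000 (661 tags against 80, 6.74-fold). Bins within 5 kb of any transcript start are also left out of these counts. Housekeeping genes had 17 of 30, ribosomal proteins 41 of 78 and histones 39 of 62. Hox genes had 2 of 40, developmental regulators 15 of 49, olfactory receptors 39 of 1066, and fibroblast and primitive endoderm genes none.

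Set beside the same TSSs in the H3K14ac libraries, H3K9ac had the wider range. At 2-fold or more over the same input were 11704 TSSs for H3K9ac, 3080 (15.0%) for 13HH3 and 3107 (15.2%) for 7G8, and at 8-fold or more 1236, 5 and 0. The medians were 1.29, 0.35 and 0.34. All 3 share the input, each has 1 library, and the antibodies differ, so these are values side by side and no difference was tested. At Hnrnpa3 the log2 ratios were 4.89, 2.86 and 2.87, at Zfp42 3.98, 2.47 and 1.49, and at Pou5f1 2.46, 0.54 and 0.92.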

How the data were processed

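Per the labels and the methods, reads were mapped by ELAND against mm9 at up to 1 mismatch. The authors deposited aligned reads of 36 bases, 1 line for each tag, and counts of tags, with no normalization, are the values used. The H3K9ac, 7G8 and input libraries hold each position and strand once, so repeated reads, if there were any, are not in their counts. In the 13HH3 library 738711 tags repeat one and were left out. Positions fit the NCBIM37 sequence, which was used with GENCODE M1, apart from 1 input tag that ends 1 bp past the end of chromosome 6.

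Tags were counted at a point 100 bp to the 3′ side of their 5′ end. Tags were scaled to 10000000 tags of the library, and a pseudocount of 1 was added before ratios. The TSS of a gene was the start shared by the largest number of its protein-coding transcripts. Where starts tied, the most upstream of them was taken. Exact 95% intervals are Clopper-Pearson intervals of the tag counts. Python 3.11.15, numpy 2.4.6, scipy 1.17.1 and pandas 2.3.3 were used, and the scripts were tested on simulated data.

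Named genes are the 15 highest, the 10 nearest the median, the 10 lowest, the highest, middle and lowest member of each list, every pluripotency member, the 10 distal regions with the most tags over scaled input, and the TSSs next to the 8-fold and 2-fold limits. Genes outside this rule are named as chosen after their values were seen: Hist1h2ba, Eif4a2, Sfi1, Tcfcp2l1 and the exceptions to the CpG pattern. The members and lists were chosen with earlier results of these data known. Some genes that the rule names are not reported here. Alternatives were tried for scaling, window, shift, depth, pseudocount, input minimum and start.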

Additional observations from a re-analysis of the deposited data

Results flagged for a closer look

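On chromosome X, which the comparisons above leave out, 331 of 747 assessed TSSs (44.3%) were at 2-fold or more over input and 23 at 8-fold or more, with a median log2 ratio of 0.79. On chromosomes 1 to 19 the shares were 57.2% and 6.04% and the median was 1.29. These values came up because they show signal over input outside the chromosomes described. They are for 1 library, and how many X chromosomes the cells of each library carry was not tested.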

How the results depend on the processing

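With 1 library per group, intervals of single sites cover counting error only, and those of medians cover the spread among TSSs. No paired analysis was possible because no replicates exist. Scaling to background, which used the 10 kb bins with fewer tags than the median bin, shifted ratios by 0.55 on the log2 scale and gave 3417 TSSs at 8-fold or more, a median of 1.84 over TSSs and 20911 called distal bins. The window of 1 kb each side gave 1991 TSSs at 8-fold or more, a median of 1.63 and an HCP minus LCP difference of 2.48, over 18807 TSSs. A pseudocount of 5 gave 541 TSSs at 8-fold or more, 1070 called bins, a median of 1.15 and a difference of 1.95. Without a minimum of input tags the median was 1.22, the difference 2.14 and the called bins 10897. At the start with the most H3K9ac tags the median was 1.36 and the difference 2.14. An 8-fold limit left 447 called bins. Of the alternatives added after the data were seen, regional scaling gave a median of 1.16 and a difference of 1.93, and brought Nox3 from -2.84 to 0.0804 on the log2 scale, and leaving out chromosomes 1, 6, 9, 15 and 17 gave a median of 1.38. Over all 20471 TSSs the number at 2-fold or more lay between 11077, with regional scaling, and 14035, with scaling to background, and without those chromosomes it was 8907 of 15013 (59.3%). Totals of chromosomes 1 to 19, unmoved ends, thinning H3K9ac to the depth of the input and the most upstream start left each of these results within 1.5 times of its count or within its interval. The most upstream start is the main start itself at genes with a single start or with all starts tied. With regional scaling 43 of 70 single genes and 9 of 21 list medians lay within the interval of the value reported, and with scaling to background 53 and 6. Over all alternatives 675 of 736 values of genes and 191 of 231 of lists did. These totals overstate the agreement. Dropping the input minimum (70 gene values) or leaving out chromosomes (53 gene values) cannot move the ratio of a single gene. The interval of a short list spans most of its members, so its median can hardly leave it. The cause of the other shifts was not tested.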
